A study of Mus musculus with 8 samples.

Results

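The immediate early response genes are a group of 32 transcription factors, phosphatases and small regulators, found by gene name in a deposited table of 54532 genes. They were followed in the brown adipose tissue, a fat that burns fuel for heat, of 4 mice labelled TG (CLCF1-ATG) and 4 mice labelled WT. CLCF1 is a secreted cytokine of the interleukin-6 family, and the series asks how its signal disturbs brown fat. The sources used here do not give the promoter or cell type that drives the transgene, nor the age, sex, diet or housing temperature of either group. All 32 genes had reads in all 8 libraries, and 31 of them reached 0.5 FPKM in 4 or more libraries, the condition for a test. Egr3 did not reach it.

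Immediate early genes are switched on within minutes of a signal, without the need for new protein. Growth factors, cytokines, nerve signals and physical stress reach them through the MAP kinases and the serum response factor SRF, and through cyclic AMP and the factor CREB. Their messenger RNAs are short-lived, and many of their products shut the same signal off again. In brown fat, noradrenaline from sympathetic nerves raises cyclic AMP, and the NR4A receptors are among the genes that this signal can induce in brown adipocytes.

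FPKM, the authors' unit, counts fragments per length of gene and per size of library, so levels can be set side by side between genes. Each log2 change is the TG mean less the WT mean of log2(FPKM + 1), tested with limma across all 12508 genes that reached 0.5 FPKM. Changes of weakly expressed genes come out too small on this scale. A gene is said to fall or rise where its Benjamini-Hochberg adjusted p was under 0.05.

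The libraries followed their labels. Clcf1 ran from 78.7 to 89.9 FPKM in TG and from 0.434 to 3.40 FPKM in WT (two-sided exact permutation p = 0.0286, the smallest that 4 against 4 allow). Recovered reads numbered 18494022 to 20183840 per TG library and 13734231 to 15751302 per WT library. All 10 brown adipocyte markers were detected in both groups, where 7 fell and 3 (Prdm16, Zic1 and Elovl3, named after their values were seen) did not pass. Their summed level was 626 to 1038 FPKM in TG and 6973 to 9870 FPKM in WT. Ucp1, the uncoupling protein of brown fat, stood at 82.8 ± 45.3 FPKM in TG and 1420 ± 371 FPKM in WT, whereas the adipocyte hormone gene Adipoq stood at 1864 ± 220 FPKM in TG and 650 ± 50.4 FPKM in WT (SD, n = 4 each). TG 5 and WT 2 stood apart in skeletal muscle markers, with summed levels of 1575 and 2823 FPKM, against 11.6 to 273 FPKM in the other 6 libraries.

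Immediate early genes were lower in TG brown fat. Of the 31 tested members 16 fell, 0 rose (0 also at an unadjusted p under 0.05 and with voom on recovered reads) and 15 did not pass, and 13 of those 15 had negative log2 changes. The falls were 51.6% of the tested members, beside 21.8% of all tested genes, while 22.3% of all tested genes rose and 44.1% changed in either direction. The median log2 change of the tested members was -0.92, beside 0.01 for all tested genes. The 4 TG values lay wholly below the 4 WT values in 14 members, beside 20.5% of all tested genes, and wholly above them in 0 members, beside 22.1%. A fall to a TG mean under 0.5 of the WT mean was seen in 15 members, beside 11.6% of all tested genes. In bulk tissue, fewer cells of a type and less RNA per cell cannot be told apart.

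Of the 31 tested members 6 reached 0.5 FPKM in fewer than 4 TG libraries and passed the filter with the help of WT (Fosb, Fosl1, Egr2, Nr4a3, Dusp2 and Dusp5), and 4 of these 6 fell. With no filter all 32 members were tested, and 15 fell, beside 9.22% of all genes in that fit. FPKM was also recomputed from the recovered reads, with their total per library in place of the authors' divisor (division by all recovered reads). This moved the median of all genes to a log2 change of 0.32. Then 5570 genes were higher and 1416 lower, against 2788 higher and 2725 lower with the authors' scaling. In that scaling 15 members fell, beside 11.3% of all tested genes, and 2 members, Btg1 and Zfp36, were called higher, beside 44.3%.

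**Figure D1:**
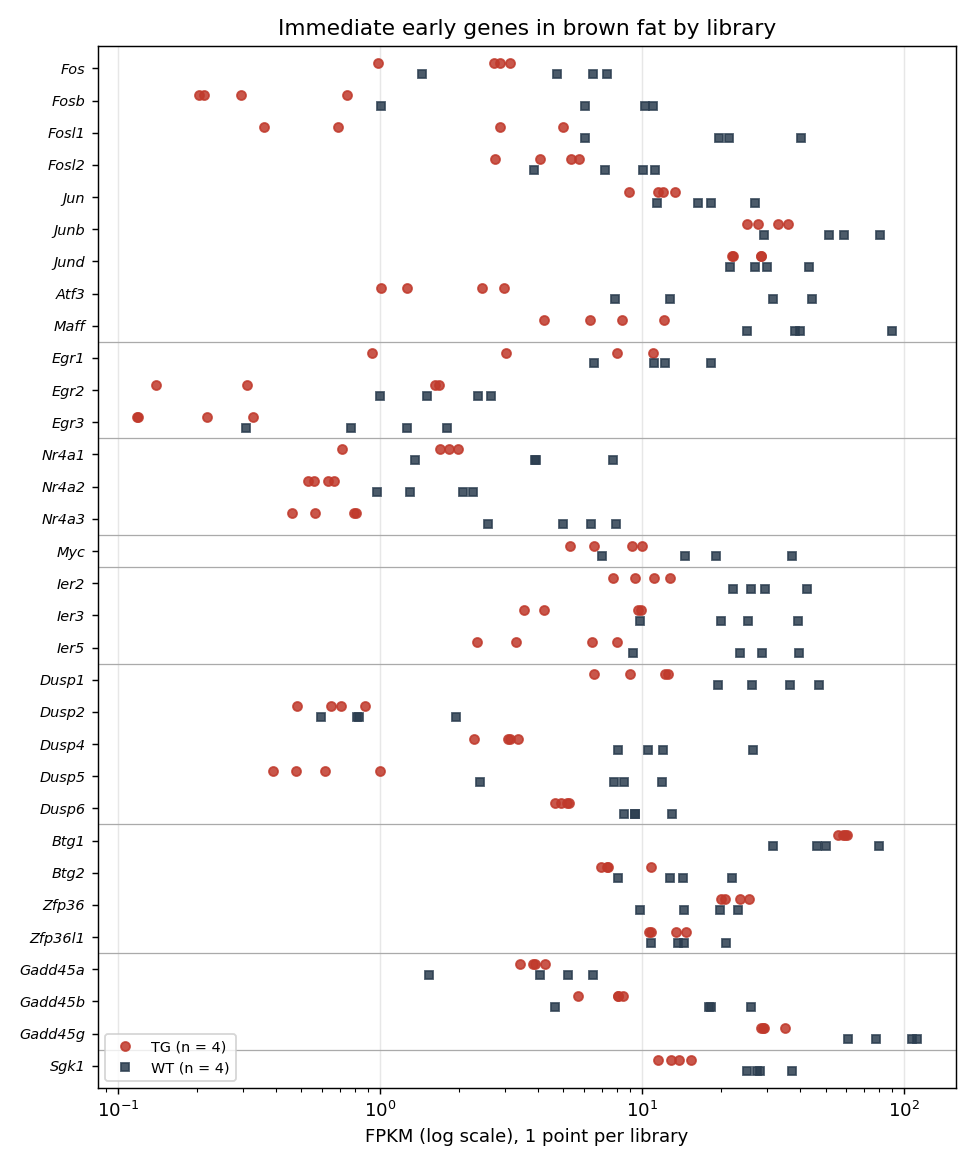
Level of each immediate early gene in FPKM (log axis), with 1 red circle per TG library above 1 dark square per WT library, and families separated by grey lines. In 14 genes, among them Atf3, Maff, Dusp5 and Sgk1, the TG and WT points do not overlap, and in 11 others the WT points other than WT 1 all lie above the TG points.

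Promoters of the members were searched for the DNA motifs of the pathway. RefSeq promoters of GRCm38.p6, from 250 bases before to 50 bases after the start, were found for 26 members, leaving Fosl1, Egr1, Egr3, Ier2, Dusp4 and Myc. The CArG box of SRF, on either strand, was present in 3 of the 26 (Egr2, Dusp5 and Zfp36), beside 1.81% of all 27025 genes with a promoter. The CREB and ATF motif TGACGTCA was present in 3 (Maff, Dusp1 and Btg2), beside 2.03% of genes. The EGR motif GCGGGGGCG was present in 5 (Fosb, Fosl2, Nr4a1, Dusp2 and Zfp36), beside 3.31%. The AP-1 motif TGANTCA was present in 1 (Zfp36l1), beside 8.97%, and the STAT motif TTCNNNGAA in 3 (Maff, Zfp36 and Sgk1), beside 9.55%. Several genes have more than 1 start in the table, and no motif found overlapped another, the CArG boxes of Dusp5 lying end to end.

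The 250 bases before the start are shown 5′ to 3′ for members with a CArG box or TGACGTCA there, since these include genes that fell (Dusp5, Maff, Dusp1) and genes that did not pass (Zfp36, Egr2, Btg2). Capitals mark the CArG boxes in Dusp5, Zfp36 and Egr2 and TGACGTCA in Maff, Dusp1 and Btg2.
Dusp5, chr19:53528895-53529144, plus strand: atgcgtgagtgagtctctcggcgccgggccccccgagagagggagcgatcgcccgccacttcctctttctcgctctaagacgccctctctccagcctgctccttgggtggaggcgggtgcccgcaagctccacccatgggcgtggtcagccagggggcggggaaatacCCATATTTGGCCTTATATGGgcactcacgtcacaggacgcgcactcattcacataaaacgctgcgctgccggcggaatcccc
Maff, chr15:79347270-79347519, plus strand: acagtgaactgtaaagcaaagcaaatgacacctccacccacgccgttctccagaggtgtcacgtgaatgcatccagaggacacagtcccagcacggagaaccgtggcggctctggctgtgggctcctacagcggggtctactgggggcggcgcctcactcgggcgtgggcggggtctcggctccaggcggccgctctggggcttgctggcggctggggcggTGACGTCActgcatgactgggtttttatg
Dusp1, chr17:26508473-26508722, minus strand: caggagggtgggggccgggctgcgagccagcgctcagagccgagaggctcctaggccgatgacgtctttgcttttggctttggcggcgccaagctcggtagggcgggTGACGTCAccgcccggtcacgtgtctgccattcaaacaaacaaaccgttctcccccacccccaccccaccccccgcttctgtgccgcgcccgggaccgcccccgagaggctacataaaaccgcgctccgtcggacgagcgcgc
Zfp36, chr7:28379229-28379478, minus strand: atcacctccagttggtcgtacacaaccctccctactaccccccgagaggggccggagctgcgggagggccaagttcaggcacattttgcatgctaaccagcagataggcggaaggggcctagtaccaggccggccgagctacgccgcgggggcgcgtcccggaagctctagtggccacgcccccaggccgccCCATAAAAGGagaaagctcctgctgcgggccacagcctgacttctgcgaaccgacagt
Egr2, chr10:67537619-67537868, plus strand: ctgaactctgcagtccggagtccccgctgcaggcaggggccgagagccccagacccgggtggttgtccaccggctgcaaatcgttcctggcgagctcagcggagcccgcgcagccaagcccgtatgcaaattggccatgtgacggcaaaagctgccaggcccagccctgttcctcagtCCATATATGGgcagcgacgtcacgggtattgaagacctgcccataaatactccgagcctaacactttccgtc
Btg2, chr1:134079156-134079405, minus strand: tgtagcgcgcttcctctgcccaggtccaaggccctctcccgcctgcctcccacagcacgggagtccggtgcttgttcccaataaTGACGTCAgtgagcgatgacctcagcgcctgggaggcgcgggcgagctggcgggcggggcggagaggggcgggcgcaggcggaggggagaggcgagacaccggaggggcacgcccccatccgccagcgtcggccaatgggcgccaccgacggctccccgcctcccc
The boxes of Dusp5 began 82 and 72 bases before the start, that of Zfp36 58 bases and that of Egr2 72 bases, the Egr2 start shown being 1 of 4 with a box. TGACGTCA began 29 bases before the start in Maff, 143 in Dusp1 and 166 in Btg2. Dusp5, with both boxes, was at 0.621 ± 0.270 FPKM in TG and 7.66 ± 3.94 FPKM in WT, whereas Zfp36, with 1, was at 22.4 ± 2.58 FPKM in TG and 16.8 ± 5.88 FPKM in WT (SD, n = 4 each). A match of letters is a description and does not show that a factor binds there.

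**Figure D2:**
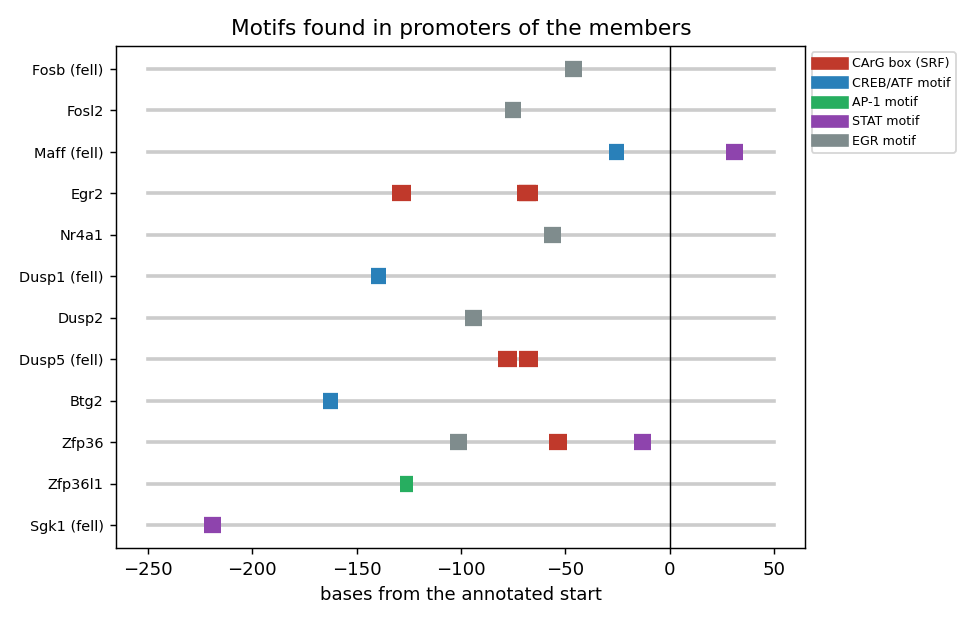
Position of each motif found (coloured blocks, in bases from the annotated start) in the promoters of the 12 members with at least 1 motif, drawn to scale over 250 bases before to 50 bases after the start. All blocks but the STAT motif of Maff lie before the start; starts of 1 gene are overlaid.

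The members of the AP-1 family, whose FOS and JUN proteins pair on DNA, differed strongly among themselves. Of 9 AP-1 genes 5 fell and 4 did not pass, and the median log2 change was -0.76. Fosb had 0.746, 0.212, 0.203 and 0.293 FPKM in TG 1, 2, 3 and 5, against 1.01, 6.06, 11.0 and 10.3 FPKM in WT 1, 2, 3 and 5. The groups did not overlap, although WT 1 lay close to TG 1, and the log2 change was -2.29 (SE 0.493, adjusted p = 0.00445). Fosl1, which encodes the FOS-like protein FRA-1, had 4.99, 0.360, 0.692 and 2.86 FPKM in TG 1, 2, 3 and 5, against 6.07, 19.7, 40.3 and 21.4 FPKM in WT 1, 2, 3 and 5. Its groups did not overlap either, and its TG values spread 13.9-fold from lowest to highest (log2 change -2.83, SE 0.584, adjusted p = 0.00363).

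Fos itself, the founding member of the family, did not pass. It had 2.85, 0.984, 3.13 and 2.73 FPKM in TG 1, 2, 3 and 5, against 1.44, 4.74, 7.32 and 6.50 FPKM in WT 1, 2, 3 and 5. The TG range enclosed WT 1 and lay below the other WT libraries (log2 change -0.72, 95% interval -1.58 to 0.13, adjusted p = 0.154). Without WT 1 the log2 change of Fos was -1.11 with an adjusted p of 0.00959.

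Atf3, a stress-induced factor that can repress its targets, had the most negative log2 change of the members at a pseudocount of 1. With a pseudocount of 0.1 the log2 change was -3.65 for Fosb, -3.56 for Fosl1 and -3.39 for Atf3. Atf3 had 2.45, 1.01, 1.26 and 2.98 FPKM in TG 1, 2, 3 and 5, against 7.88, 12.7, 44.5 and 31.4 FPKM in WT 1, 2, 3 and 5 (log2 change -2.87, SE 0.478, adjusted p = 0.00110). Maff, a small MAF protein that binds DNA but lacks a transactivation domain, had 12.0, 4.22, 6.31 and 8.38 FPKM in TG 1, 2, 3 and 5, against 25, 39.8, 89.8 and 38.1 FPKM in WT 1, 2, 3 and 5. Neither gene's groups overlapped, and the log2 change of Maff was -2.41 (SE 0.381, adjusted p = 0.000811).

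Jun, the main partner of FOS, averaged 11.4 ± 1.86 FPKM in TG and 18.2 ± 6.47 FPKM in WT (SD, n = 4 each) and did not pass (log2 change -0.58, adjusted p = 0.0623). Jund, the most steadily expressed JUN gene in most tissues, averaged 25.2 ± 3.63 FPKM in TG and 30.4 ± 9.23 FPKM in WT, with a 95% interval of its log2 change from -0.67 to 0.22. Fosl2, the FOS-like gene that encodes FRA-2, averaged 4.47 ± 1.35 FPKM in TG and 8.05 ± 3.26 FPKM in WT (log2 change -0.68, adjusted p = 0.0871). Junb passed narrowly, with 36.0, 25.1, 32.9 and 27.7 FPKM in TG 1, 2, 3 and 5 and 29.0, 58.6, 80.4 and 51.5 FPKM in WT 1, 2, 3 and 5 (log2 change -0.76, adjusted p = 0.0437). WT 1 lay among the TG values of Junb, and the call was lost in 14 of 20 alternatives, the adjusted p running from 0.00256 to 0.321. Junb also overlaps Prdx2 on the opposite strand, a gene with 35929 reads beside the 12806 of Junb, and the sources used here do not say whether counting used strand.

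Of the EGR zinc-finger factors, classical targets of the MAP kinases and SRF, Egr1 and Egr2 spread widely within TG. Egr1 had 11.0, 0.927, 3.03 and 7.99 FPKM in TG 1, 2, 3 and 5, against 6.55, 11.1, 18.2 and 12.3 FPKM in WT 1, 2, 3 and 5. Its TG libraries differed 11.9-fold from lowest to highest, with TG 1 and TG 5 inside the WT range, and it did not pass (log2 change -1.20, 95% interval -2.38 to -0.02, adjusted p = 0.0924). Without TG 1 the adjusted p of Egr1 was 0.0359. Egr2 had 1.68, 0.139, 0.309 and 1.62 FPKM in TG 1, 2, 3 and 5, against 0.999, 1.51, 2.66 and 2.36 FPKM in WT 1, 2, 3 and 5 (log2 change -0.64, adjusted p = 0.127). As with Egr1, TG 1 and TG 5 were high and TG 2 and TG 3 low. Egr3, not tested, had 0.219, 0.118, 0.119 and 0.327 FPKM in TG 1, 2, 3 and 5, against 0.308, 0.776, 1.26 and 1.80 FPKM in WT 1, 2, 3 and 5, from 11 to 91 reads per library.

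The NR4A orphan nuclear receptors, which act without a known ligand, were lower in TG for Nr4a2 and Nr4a3. Nr4a3 had 0.806, 0.797, 0.563 and 0.459 FPKM in TG 1, 2, 3 and 5, against 4.96, 2.57, 6.34 and 7.97 FPKM in WT 1, 2, 3 and 5 (log2 change -1.89, SE 0.2498, adjusted p = 0.000282). Nr4a2 had 0.630, 0.558, 0.528 and 0.666 FPKM in TG 1, 2, 3 and 5, against 2.07, 0.971, 1.30 and 2.26 FPKM in WT 1, 2, 3 and 5 (log2 change -0.70, adjusted p = 0.00689). In these genes WT 2, not WT 1, was the lowest WT library, and the groups did not overlap. Nr4a1 averaged 1.55 ± 0.570 FPKM in TG and 4.24 ± 2.64 FPKM in WT, overlapped through WT 1, and did not pass (log2 change -0.92, adjusted p = 0.0579). Myc, the growth-promoting factor, averaged 7.75 ± 2.21 FPKM in TG and 19.5 ± 12.9 FPKM in WT (SD, n = 4 each) and likewise did not pass (log2 change -1.05, adjusted p = 0.0624).

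All 3 IER genes fell. Ier2, a small nuclear protein encoded without introns, had 12.8, 7.69, 11.1 and 9.40 FPKM in TG 1, 2, 3 and 5, against 22.1, 26.1, 42.5 and 29.3 FPKM in WT 1, 2, 3 and 5 (log2 change -1.45, SE 0.207, adjusted p = 0.000458). Ier5, which takes part in the heat shock response, had 7.98, 2.33, 3.29 and 6.41 FPKM in TG 1, 2, 3 and 5, against 9.22, 23.5, 39.5 and 28.5 FPKM in WT 1, 2, 3 and 5 (log2 change -2.08, SE 0.436, adjusted p = 0.00396). Neither gene overlapped between groups. Ier3, a regulator of survival, had 9.87, 3.55, 4.22 and 9.64 FPKM in TG 1, 2, 3 and 5, against 9.76, 20.04, 39.4 and 25.4 FPKM in WT 1, 2, 3 and 5, and overlapped through WT 1 alone (log2 change -1.61, SE 0.419, adjusted p = 0.0116).

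The DUSP phosphatases, which remove phosphate from MAP kinases and so end the signal, fell in 4 of 5 cases. Dusp1, induced by stress and glucocorticoids, had 12.6, 6.55, 8.96 and 12.2 FPKM in TG 1, 2, 3 and 5, against 19.4, 26.3, 47.4 and 36.4 FPKM in WT 1, 2, 3 and 5 (log2 change -1.56, SE 0.279, adjusted p = 0.00167). Dusp5, a nuclear phosphatase specific for ERK whose paired CArG boxes are printed above, had 1.00, 0.477, 0.389 and 0.617 FPKM in TG 1, 2, 3 and 5, against 2.40, 7.78, 11.9 and 8.55 FPKM in WT 1, 2, 3 and 5 (log2 change -2.28, SE 0.353, adjusted p = 0.000726). Dusp4, a nuclear phosphatase of ERK and JNK, averaged 2.96 ± 0.471 FPKM in TG and 14.3 ± 8.32 FPKM in WT (SD, n = 4 each; log2 change -1.82, adjusted p = 0.000954). These 3 genes did not overlap between groups.

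Dusp6, the cytoplasmic ERK phosphatase whose transcript follows ERK activity, had the smallest standard error of all members. It had 4.65, 5.26, 5.14 and 4.90 FPKM in TG 1, 2, 3 and 5, against 8.51, 9.35, 12.9 and 9.40 FPKM in WT 1, 2, 3 and 5 (log2 change -0.87, SE 0.128, adjusted p = 0.000543). The groups did not overlap, and leaving out any single library kept the adjusted p under 0.05. Dusp2, a phosphatase of immune cells, stayed near 1 FPKM and did not pass (0.677 ± 0.163 FPKM in TG and 1.05 ± 0.613 FPKM in WT, adjusted p = 0.306).

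Of the 4 regulators of messenger RNA decay and growth arrest 0 passed in either direction, while at an unadjusted p under 0.05, and with voom on recovered reads, 1 of them (Btg2) was lower in TG. Zfp36, or tristetraprolin, which binds AU-rich elements and speeds the decay of early-response and cytokine transcripts, had 25.5, 19.9, 23.5 and 20.7 FPKM in TG 1, 2, 3 and 5, against 9.78, 19.9, 23.1 and 14.4 FPKM in WT 1, 2, 3 and 5 (log2 change 0.46, 95% interval -0.05 to 0.97, adjusted p = 0.132). Btg1, an antiproliferative partner of the deadenylase complex, had 55.7, 58.5, 60.2 and 59.1 FPKM in TG 1, 2, 3 and 5, against 31.6, 50.3, 79.7 and 46.4 FPKM in WT 1, 2, 3 and 5 (log2 change 0.24, 95% interval -0.27 to 0.75, adjusted p = 0.425). The TG values of both genes lay within a narrow band, and the WT values spread to either side of it for Btg1. Both were called higher when FPKM was divided by all recovered reads (adjusted p = 0.0133 for Zfp36 and 0.0343 for Btg1), under the rescaling without abundant genes (adjusted p = 0.0152 for Zfp36 and 0.0409 for Btg1, beside 42.3% of all tested genes called higher) and without WT 3 (adjusted p = 0.0434 for Zfp36 and 0.0449 for Btg1, beside 20.5%), and over all alternatives their adjusted p reached 0.284 and 0.906. Zfp36l1, a relative of Zfp36, averaged 12.4 ± 2.04 FPKM in TG and 14.9 ± 4.27 FPKM in WT (adjusted p = 0.356). Btg2 averaged 8.12 ± 1.80 FPKM in TG and 14.3 ± 5.83 FPKM in WT and missed the threshold narrowly (log2 change -0.69, adjusted p = 0.0540).

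The GADD45 genes, small stress-response regulators of MAP kinase signalling and DNA demethylation, split. Gadd45g, which is induced by cold in mouse brown fat, had 35.2, 28.4, 29.1 and 28.8 FPKM in TG 1, 2, 3 and 5, against 77.7, 111, 107 and 61.0 FPKM in WT 1, 2, 3 and 5 (log2 change -1.49, SE 0.189, adjusted p = 0.000221). It had the highest WT mean of all members, and its groups did not overlap. Gadd45b averaged 7.58 ± 1.28 FPKM in TG and 16.8 ± 8.87 FPKM in WT (SD, n = 4 each) and did not pass, with WT 1 at 4.65 FPKM below every TG library (log2 change -0.86, adjusted p = 0.120), whereas without WT 1 its adjusted p was 0.000530. Gadd45a averaged 3.85 ± 0.335 FPKM in TG and 4.32 ± 2.10 FPKM in WT, with a 95% interval of the log2 change from -0.67 to 0.61.

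Sgk1, a serum- and glucocorticoid-induced kinase, was among the members with the smallest error. It had 13.8, 12.9, 11.5 and 15.3 FPKM in TG 1, 2, 3 and 5, against 27.5, 25.04, 28.2 and 37.3 FPKM in WT 1, 2, 3 and 5 (log2 change -1.08, SE 0.140, adjusted p = 0.000257). Every WT library exceeded every TG library, WT 1 included.

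**Figure D3:**
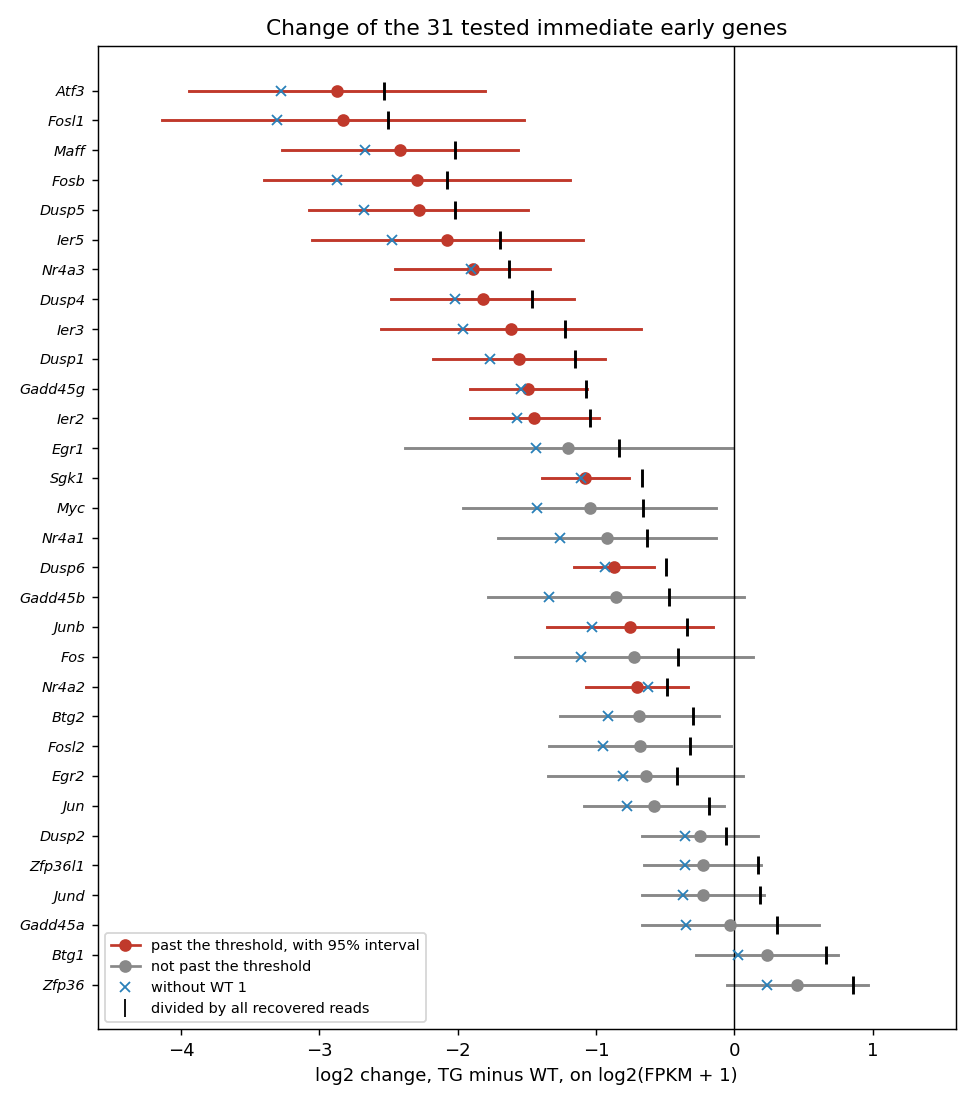
Log2 change (TG minus WT) of the 31 tested immediate early genes with 95% intervals from limma, red where the adjusted p was under 0.05 and grey otherwise. Crosses give the change without WT 1 and black bars the change after division by all recovered reads; 16 genes are red, and the bars lie to the right of the circles for all genes shown.

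Within each group the same libraries tended to be high or low over many members. The orders counted here were picked from these same values, so the counts describe the members and are not a test. WT 1 was the lowest WT library in 28 of 32 members and WT 3 the highest in 26, and both held at once in 26 members, beside 9.60% of all tested genes. TG 2 was the lowest TG library in 22 members and TG 1 the highest in 19, and both held in 15, beside 8.02% of tested genes. The ratio of the highest to the lowest library had a median over the members of 1.79 in TG and 2.997 in WT, beside 1.36 in TG and 1.61 in WT over tested genes above 0. WT 1 lay above every TG library in 14 members, inside the TG range in 13 and below every TG library in 5, whereas the other 3 WT libraries lay above every TG library in 25 members.

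The number of members that passed moved with WT 1. Without WT 1 the fall was called in 24 of 32 members, beside 21.4% of all tested genes in that fit. All 16 members that fell with every library were among the 24, and the others were Fos, Fosl2, Jun, Nr4a1, Myc, Btg2, Gadd45b and Egr3. In fits with a library left out, a gene needed 0.5 FPKM in as many libraries as the smaller group then had. Egr3 entered this fit only under that looser filter and through WT alone, as its TG values were at most 0.327 FPKM. Leaving out any other library gave 15 to 18 members lower, beside 18.0% to 22.1% of all tested genes. Without both TG 5 and WT 2, the libraries with muscle markers, 15 fell, beside 16.6% of all tested genes. Over all 20 alternatives, 15 of the 16 members that fell kept an adjusted p under 0.05 in each alternative that tested them (0.0416 at most), the exception being Junb.

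Neutrophil markers, when summed, moved between libraries in an order that 12 of the 32 members shared. The summed level of 8 neutrophil markers was 26.9, 4.28, 4.44 and 15.6 FPKM in TG 1, 2, 3 and 5, against 13.8, 151, 398 and 130 FPKM in WT 1, 2, 3 and 5. WT 1 was again the lowest and WT 3 the highest WT library, and TG 1 and TG 5 stood above TG 2 and TG 3. Of the members, 12 showed this order in both groups (Fosb, Fosl1, Fosl2, Atf3, Maff, Egr1, Egr2, Myc, Ier3, Ier5, Dusp1 and Dusp5), beside 2.88% of all tested genes. The order was picked from these same data, so the count is not a test. It was not particular to neutrophil markers. Summed levels of the other primary-response genes, MAP kinase feedback inhibitors and AP-1 partners, lists described below, showed it too. Single neutrophil markers did not all follow it, with Csf3r highest and Mmp8 lowest in WT 5. All 4 tested neutrophil markers fell, the calcium-binding proteins S100a8 and S100a9 among them, which were named after their values were seen. The others that fell, Csf3r and Retnlg, were under 0.5 FPKM in some TG libraries and passed the filter with the help of WT. Of the 8 markers 4 were too low to test. S100a8 and S100a9 gave 125 and 242 FPKM of the sum in WT 3, and 10.5 and 14.1 FPKM in TG 1. Both overlapped between groups, with WT 1 at 4.65 and 6.34 FPKM. The granule marker Elane, not tested, went the other way, with a mean of 1.06 FPKM in TG and 0.373 FPKM in WT. The defining marker Ly6g was at 0 in all TG libraries and at 0.371 FPKM or less in WT. In WT 1, whose neutrophil sum lay within the TG range, 14 members stood above every TG library, 13 inside the TG range and 5 below every TG library. The part of these cells in the result was not tested.

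Markers of other cell types moved with the genotype as well. All 7 tested endothelial markers fell, with a summed level of 25.7 to 43.3 FPKM in TG and 133 to 299 FPKM in WT, and Klf2, an immediate early gene of endothelium outside the 32 members, fell by 1.18 on the log2 scale. Macrophage markers were 363 to 443 FPKM in TG and 213 to 354 FPKM in WT, with 5 of 9 higher, and B and plasma cell markers 34.4 to 40.8 FPKM in TG and 2.86 to 4.58 FPKM in WT, with 3 of 4 tested higher. Of 8 markers common to all adipocytes 6 were higher, of 7 fibroblast markers 3 were higher and 2 lower, of 4 tested T and NK cell markers 2 were higher and of 3 tested Schwann cell markers 1 was lower. Of 7 skeletal muscle markers 0 passed, nor did any at an unadjusted p under 0.05, and 0 mesothelial markers were abundant enough to test. Of 5 erythroid markers 5 fell (1529 to 1901 FPKM in TG and 5110 to 12890 FPKM in WT), and of 6 tested pericyte and smooth muscle markers 5 fell and 1 rose. Among smooth muscle markers that fell, Cnn1 and Myh11 passed the filter through WT alone. The plasma cell marker Mzb1, which was higher, passed it through TG alone. The share of reads on the mitochondrial chromosome was 6.09% to 7.34% in TG and 24.1% to 37.5% in WT. The part of each of these in the members' falls was not tested.

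**Figure D4:**
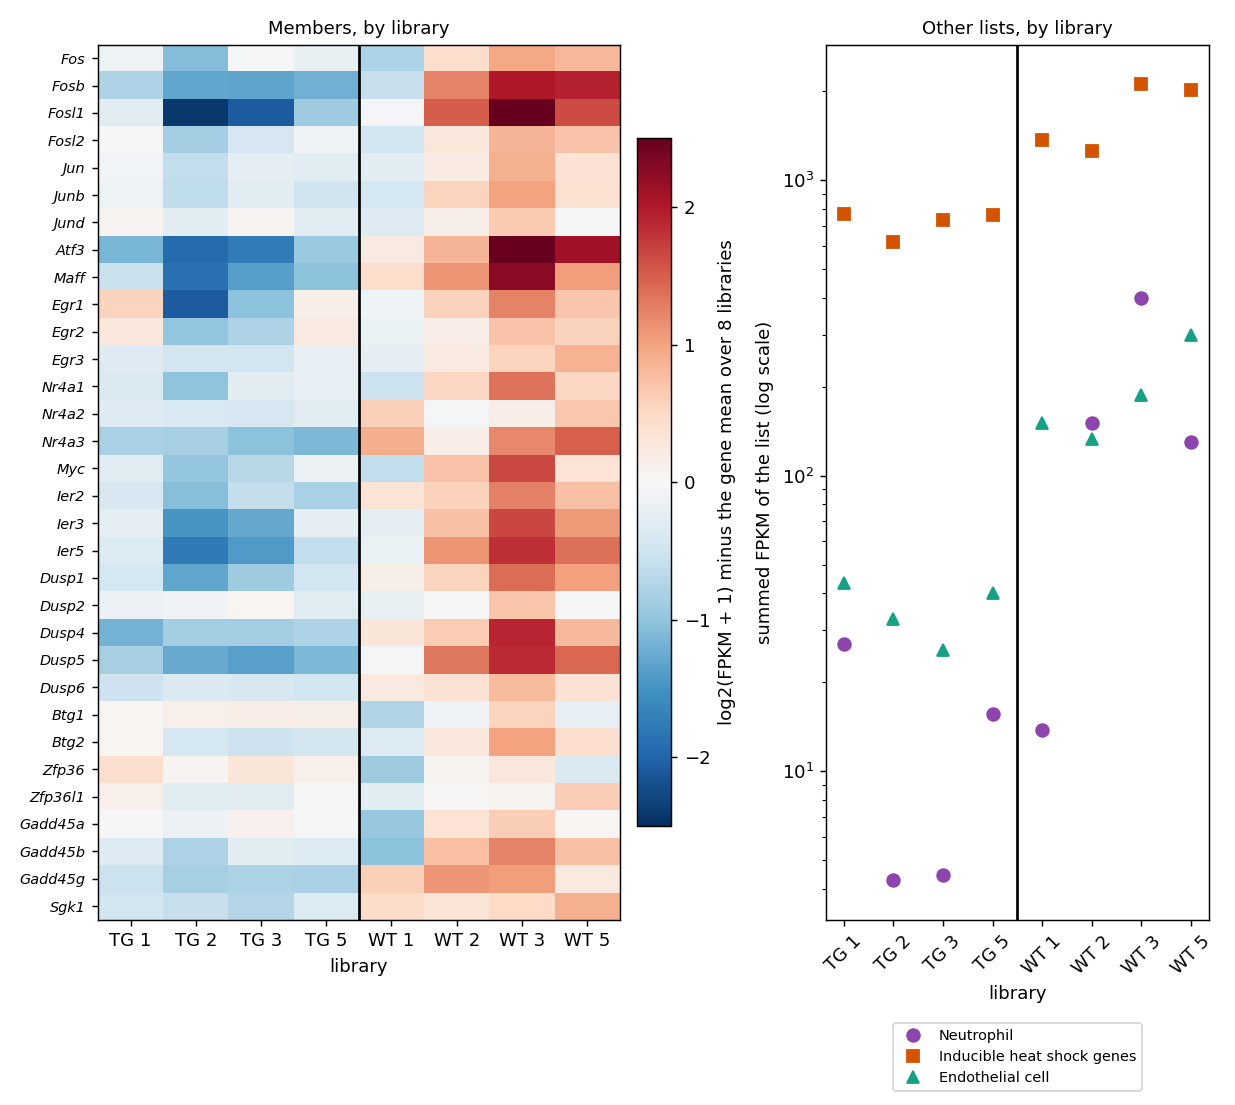
Left, log2(FPKM + 1) of each member minus its mean over the 8 libraries, red for higher and blue for lower. Right, summed FPKM (log axis) of the neutrophil, heat shock and endothelial lists in the same libraries. WT 3 is the reddest column and TG 2 the bluest, and the neutrophil sum is 398 FPKM in WT 3 and 4.28 FPKM in TG 2.

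Other primary-response genes, chosen as a list of 43 found genes outside the members, were mostly lower in TG too. The fall was called in 25 of 39 tested, beside 21.8% of all tested genes, and a rise in 1, beside 22.3%. Of the 25, Sgk2 had 0 reads in TG and passed the filter through WT alone. Arc and Plk3 passed it with the help of WT. The median log2 change was -0.96. Klf2 stood at 13.2 ± 1.38 FPKM in TG and 31.2 ± 3.16 FPKM in WT (SD, n = 4 each). Id1, an inhibitor of helix-loop-helix factors, fell by 1.79 on the log2 scale, the kinase gene Pim1 by 1.45 and the BTG relative Btg3 by 1.10. The gene that rose was the clock gene Per1 (log2 change 0.60), named after its value was seen.

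Heat shock and chaperone genes fell in 8 of 10 cases, beside 21.8% of all tested genes, with a median log2 change of -1.15. Hspb1, the small heat shock protein, stood at 69.5 ± 21.1 FPKM in TG and 323 ± 104 FPKM in WT (log2 change -2.19, SE 0.254, adjusted p = 0.000130). The mitochondrial chaperones Hspd1 and Hspe1 fell by 0.97 and 1.10 on the log2 scale, and Hspa8 by 0.99. The Hspa8 call was lost with quantile normalisation (adjusted p = 0.178). The summed level of the list was 620 to 767 FPKM in TG and 1258 to 2112 FPKM in WT. Hspa1a and Hspa1b, near-identical copies whose reads counting may split, did not pass.

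The kinases and factors upstream of the members moved in both directions. Among 21 tested MAP kinase genes there were 7 falls and 5 rises, and the median log2 change was 0.00. Of all tested genes 21.8% fell and 22.3% rose. Mapkapk2, a kinase downstream of p38, fell to 32.4 ± 1.88 FPKM in TG, against 83.9 ± 6.71 FPKM in WT (log2 change -1.34, adjusted p = 8.97e-06). Hras and Map2k2 fell by 0.94 and 0.77 on the log2 scale. Of 12 factors of the SRF, ETS and CREB kind 4 fell and 1 rose. Srf had 9.27, 6.04, 8.02 and 8.31 FPKM in TG 1, 2, 3 and 5, against 9.80, 23.5, 35.2 and 13.2 FPKM in WT 1, 2, 3 and 5 (log2 change -1.12, SE 0.334, adjusted p = 0.0217). WT 1 was again the lowest WT library, and the call of Srf was lost in 6 of 20 alternatives, with an adjusted p of up to 0.0979. Crem and Elk4 fell by 0.69 and 0.51 on the log2 scale and Elk1 rose by 0.45. The Elk4 call was lost when FPKM was divided by all recovered reads (adjusted p = 0.235) and under the rescaling without abundant genes (0.157).

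Feedback inhibitors and AP-1 partners outside the members gave few calls. Of 11 tested feedback inhibitors of MAP kinase signalling 2 fell, Spred1 by 0.85 and Dusp8 by 0.75 on the log2 scale, 0 rose and 9 did not pass, among them Spred2 (log2 change -0.32, adjusted p = 0.0542) and Errfi1 (log2 change -1.25, adjusted p = 0.0605). The Spred1 call was lost when FPKM was divided by all recovered reads (adjusted p = 0.0545). Of 11 tested AP-1 partners 3 fell and 1 rose. Mafk fell by 1.598, Atf4 fell by 1.33 and Atf2 fell by 0.94 on the log2 scale. Mafk is also on the list of other primary-response genes. These shares, and those of the other lists and cell type markers, are to be read beside the 21.8% of all tested genes that fell and the 22.3% that rose.

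The members varied in gene structure, with a short median span. In the GENCODE M21 annotation the longest coding transcript of a member had a median of 3.5 exons, beside 9 for 11021 tested protein-coding genes, and the median genomic span was 5073 bases, beside 23102. Members ran from 1 exon (Jun and Ier2 among them) to 14 exons in Sgk1, whose span was 117720 bases. The heptamer TATTTAT, a core of the AU-rich elements that Zfp36 binds, was present in the 3′ untranslated region of 18 of 32 members (56.3%), beside 29.4% of 10958 tested genes. It was present in 24.6% of the 3107 of these whose untranslated region was as long as the middle of the members' range (605 to 1453 bases). The members' share was not limited in this way and includes shorter and longer regions. Of the 16 members that fell 9 held it, and so did 9 of the 15 that did not pass. The members lay on 15 chromosomes, with at most 5 on 1 of them. Representative positions in mm10, as deposited, were chromosome 7, 19302696 to 19310051 (minus strand) for Fosb, chromosome 1, 191170296 to 191218039 (minus strand) for Atf3 and chromosome 19, 53529109 to 53542431 (plus strand) for Dusp5.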

How the data were processed

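Brown adipose tissue RNA of 8 mice was sequenced; per the labels' protocols, TRIzol RNA went into Illumina TruSeq libraries. The submitters' processing notes name the build mm10 with featureCounts 1.5.0-p3, HISAT2 2.0.5 and bcl2fastq; the sources used here give no settings. The authors deposited FPKM per gene and library. Multiplied by gene length, FPKM fell on whole steps in each library, so reads and depth could be recovered (within 1.61e-07 of a whole number). The recovered reads were 0.822 to 0.883 times the authors' divisor in TG and 1.02 to 1.22 times in WT.

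The test was that of limma 3.58.1 (R 4.3.3; intensity trend, two-sided) on log2(FPKM + 1), with Benjamini-Hochberg adjustment over 12508 genes, and the procedure was tested on simulated data. Sample titles give only tissue, group and replicate number, and replicates were taken as separate mice. The p-values set the difference between groups against the spread between libraries. Members, lists and markers were chosen with earlier results of these data known. Named were all members, Clcf1, 3 tissue genes and up to 4 genes per list with the lowest p; others were named after their values were seen. Counts over the lists include genes not reported here by name. Alternatives covered pseudocount, filter, scaling, variance model, replicate block and left-out libraries; the rescaling without abundant genes set each library to 1 total outside mitochondrial, haemoglobin and the 20 most abundant genes, and leaving out TG 5 with WT 2 was added after seeing the data. Figures were drawn with matplotlib 3.10.9.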

Additional observations from a re-analysis of the deposited data

Results flagged for a closer look

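In groups of 4 libraries, a value was picked out where its gap to the nearest other library, over the group's range, exceeded Dixon's 95% critical value. This was applied to 114 groups of 57 genes and picked 8, and chance gives about 1 in 20. Among the members, TG 1 stood apart as the highest TG library for Fosb at 0.746 FPKM (0.203 to 0.293 FPKM in the other TG libraries), for Btg2 at 10.8 FPKM (6.94 to 7.42 FPKM) and for Gadd45g at 35.2 FPKM (28.4 to 29.1 FPKM). TG 2 stood apart as the lowest for Gadd45b at 5.68 FPKM (8.07 to 8.46 FPKM). Outside the members, Pim1 was high in TG 1 at 4.83 FPKM, Hspd1 in WT 3 at 287 FPKM, and Elk1 in TG 3 at 2.46 FPKM and in WT 1 at 1.42 FPKM.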

How the results depend on the processing

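Among members, the counts of falls stayed between 15 and 20 under the pseudocount, filter, scaling and variance alternatives. In those fits 9.22% to 23.5% of all tested genes were lower, and the members' median log2 change stayed negative. With all genes, 5322 were higher and 1530 lower under the rescaling without abundant genes, and 5570 and 1416 with division by all recovered reads; 2 members were then higher under each, as they were without WT 3. Pathway genes outside the members were higher in 19 and 21 cases under those scalings, and in 5 without TG 3 or without both TG 5 and WT 2, against 8 in the fit as reported. Leaving out 1 library at a time gave 2265 to 2771 genes higher and 2330 to 2825 lower, 0 to 2 members higher and 15 to 24 lower, a members' median of -1.18 to -0.74, and 5 to 9 pathway genes higher and 40 to 54 lower. In these fits 17.5% to 21.7% of all tested genes were higher and 18.0% to 22.1% lower. Sign changes, none past the threshold, were those of Jund (0.14 and 0.19) and Zfp36l1 (0.13 and 0.17) under both scalings. Gadd45a had 0.27 and 0.31 under them, 0.00563 with a pseudocount of 0.1, 0.0166 with upper quartile scaling, 0.0806 without TG 5 and WT 2, and -0.35 to 0.17 with single libraries left out. The causes were not tested. The replicate block gave 15 members lower, beside 19.7% of all tested genes, losing Junb (adjusted p = 0.0606). Same-numbered libraries correlated at -0.24 to 0.04, and no library correlated best with its own number, so the numbers were not taken as pairs. Few reads limit Egr2, Egr3, Fosl1 and Dusp2, with 10 to 14 in their shallowest library.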

Other observations

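Other primary-response genes, named after their values were seen, were also lower in TG. Arc, a synaptic gene that is a classical target of SRF in neurons, had 2.25, 0.278, 0.272 and 2.10 FPKM in TG 1, 2, 3 and 5, against 3.92, 12.5, 37.2 and 12.2 FPKM in WT 1, 2, 3 and 5 (log2 change -2.75, SE 0.573, limma adjusted p = 0.00379). Cebpb, an early factor of adipocyte differentiation and of cold-exposed brown fat, stood at 128 ± 18.6 FPKM in TG and 416 ± 226 FPKM in WT (SD, n = 4 each; adjusted p = 0.00331). Noct, a circadian phosphatase, fell to 7.11 ± 1.17 FPKM in TG, against 30.8 ± 14.3 FPKM in WT (adjusted p = 0.000583). Sgk2, listed as a relative of Sgk1, had 0 reads in the 4 TG libraries and 0.522, 2.64, 4.70 and 1.31 FPKM in WT 1, 2, 3 and 5. It therefore passed the filter on low values through WT alone.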
